A study of Homo sapiens with 10 samples.

Results

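The genes described here are the ligands, receptors, secreted antagonists, signal transducers and targets of the WNT pathway, measured by RNA sequencing in cells that overexpressed DAZL and in control cells. Members were chosen by name from the deposited expression table: the WNT, FZD, SFRP, DKK and RSPO families, and 19 further genes from LRP5 to RNF43. The rule matched 63 entries, of which 3 are copies of WNT3, WNT9B and LRP6 at alternate loci that were listed at 0 in every library, leaving 60 WNT genes among 64940 genes in the table. The study asked how DAZL, an RNA-binding protein of germ cells, acts in human primordial germ cell-like cells (PGCLCs) made from embryonic stem cells. The 4 libraries came from the embryonic stem cell line H9, with 2 control libraries and 2 libraries of cells overexpressing DAZL (oeDAZL). The sample labels give the control cells the genotype wt and call them spontaneously differentiated (SD) cells. They call the oeDAZL cells hPGCLCs. The design text calls both groups PGCLCs, and by the methods such cells were differentiated with BMP4 and BMP8a in serum-containing medium and received DAZL or a control from a lentivirus. Whether the control cells of these libraries were given the BMPs and a control virus is therefore not settled, and DAZL and the culture cannot be told apart in the comparison. Both groups rest on a single cell line. Nothing in the labels says that the replicates were separate cultures, so P-values measure only the spread between these libraries.

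WNT proteins are secreted lipid-modified ligands that bind a Frizzled (FZD) receptor together with the co-receptor LRP5 or LRP6. Without ligand, a destruction complex built on AXIN and APC lets the kinase GSK3B mark β-catenin (CTNNB1) for degradation. With ligand, β-catenin accumulates and binds the TCF/LEF transcription factors, which switch on targets that include inhibitors of the pathway itself. In the embryo the pathway is known for inducing the primitive streak and mesoderm, and it takes part in the competence of pluripotent cells to become germ cells.

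Levels are in TPM, transcript abundance scaled for transcript length and set to the same total in each library, so that levels of different genes can be set side by side. This unit hides the read depth, which is unknown here, and a gene at 0 is only listed at 0. DAZL was listed at 0 and 0.0333 TPM in control and 102 and 101 TPM in oeDAZL. Of 7 markers of primordial germ cells, DDX4 was listed at 0 in all 4 libraries, NANOS3 lay between 0.732 and 1.66 TPM, PRDM1 between 1.47 and 2.32 TPM and SOX17 between 2.52 and 3.35 TPM, while TFAP2C reached 44.3 to 53.9 TPM. The amnion marker GABRP lay between 1208 and 1408 TPM. The summed level of the 10 markers of mesoderm and mesenchyme was 2279 to 2365 TPM in control and 2045 to 2073 TPM in oeDAZL. COL1A1, COL3A1, PDGFRA and TBXT were lower and HAND1 and SNAI2 higher in both oeDAZL libraries. For the 7 neural markers the summed level was 445 to 588 TPM in control and 645 to 701 TPM in oeDAZL. The neural sum came mainly from NES, higher in both oeDAZL libraries, and TUBB3, which overlapped. PAX6 was lower in both oeDAZL libraries, and the neural marker NEUROG2 was listed at 0 in 3 libraries and at 0.049 TPM in oeDAZL replicate 2. The sums of the markers of pluripotency, primordial germ cells, amnion and trophoblast, and endoderm overlapped between the groups. Within them POU5F1 and TDGF1 were higher in both oeDAZL libraries. POU5F1 was at 13.6 and 10.6 TPM in control and 22.4 and 20.4 TPM in oeDAZL. The pluripotency markers SOX2, LIN28A and DPPA4 were lower in both, LIN28A at 476 and 428 TPM against 417 and 401 TPM. So were the germ cell markers NANOS3, PRDM1 and KIT. Of the amnion and trophoblast markers, CGA, VTCN1, ISL1 and GATA3 were lower in both and KRT7 higher. Of the endoderm markers, AFP, CXCR4 and GATA6 were lower in both and FOXA2 higher. The markers NANOG, PRDM14, SOX1, ELF5 and MESP1 lay under 1 TPM in all 4 libraries, and no difference is read from them. Of the 16687 genes with a mean of at least 1 TPM, 38.4% were lower in both oeDAZL libraries and 16% higher in both. These libraries are of mixed bulk RNA, in which fewer cells of a type and less RNA per cell cannot be told apart. The part of cell composition in the WNT values below was not tested.

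In oeDAZL cells the tested WNT genes differed from control by less than 2-fold each on the log2(TPM + 1) scale. The log2 fold change was negative for 35 of the 50, beside 65.3% of all tested genes, so that the share of negative signs was near that background. In plain TPM the same held for all but the low-level ligand WNT8A, whose control mean was 2.89 times the oeDAZL mean. The direct target AXIN2, the antagonist SFRP2, the ligand WNT6, the transcription factor LEF1 and the co-receptor LRP5 were lower. The ubiquitin ligase RNF43 and the ligand WNT9B were higher. The 50 WNT genes with a mean of at least 1 TPM over the 4 libraries were compared within a limma fit of log2(TPM + 1) over 16687 genes, a scale on which the change of low genes is understated. Calls followed the thresholds in the study's methods, an unadjusted P-value of 0.05 or less together with a change of 2-fold or more. At these, limma called 0 WNT genes higher and 0 lower, against 0.126% and 0.563% of all tested genes. At an unadjusted P of at most 0.05, whatever the fold, 2 WNT genes were higher (4.0%) and 13 were lower (26.0%), against 5.02% and 15.2% of all tested genes. None had an adjusted p under 0.05 in limma (Benjamini-Hochberg over all tested genes), a threshold that 0.0599% of all tested genes passed, and the lowest value among the WNT genes was 0.0896. For 27 of the 50 WNT genes both oeDAZL libraries lay below both control libraries, against 38.4% of all tested genes, and for 7 both lay above, against 16%. The other 16 overlapped. The median log2 fold change of the WNT genes was −0.13, beside −0.08 for all tested genes. This median lay at −0.05 with median-of-ratios scaling and with quantile normalization, where all tested genes had medians of −0.00258 and 0.00613. The smallest P that an exact permutation test allows with 2 libraries per group is 0.333, and none was run on single genes. In the gene accounts, a gene passed where its unadjusted limma P was at most 0.05, and the p-value printed is limma's adjusted p over all tested genes.

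**Figure D1:**
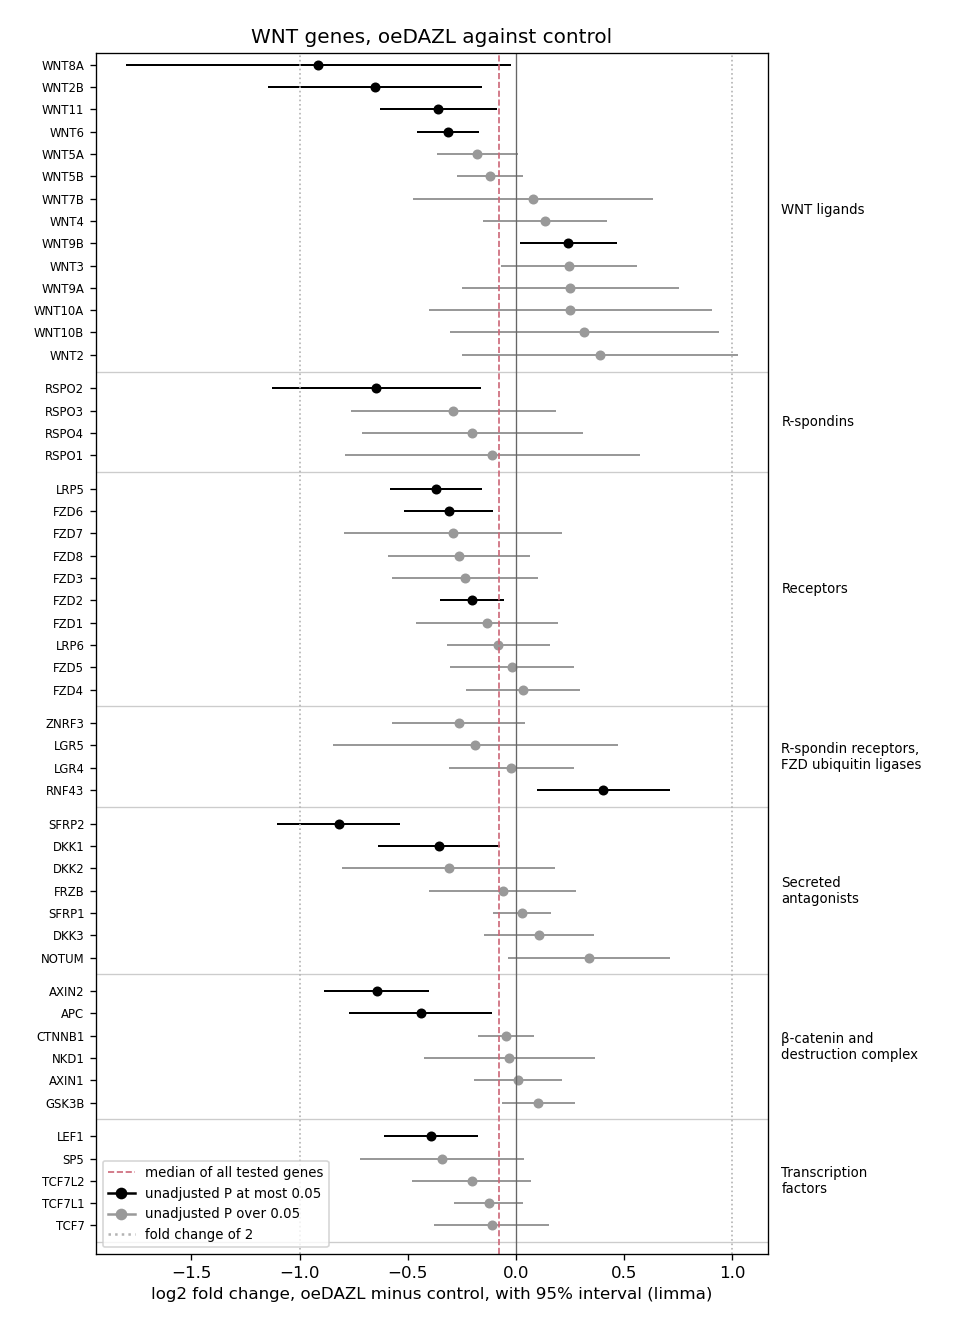
Log2 fold change of each of the 50 tested WNT genes, oeDAZL minus control, by role; points are limma estimates on the log2(TPM + 1) scale and lines their 95% intervals (2 libraries per group). Black marks the 15 genes at an unadjusted P of at most 0.05, of which 13 lie left of 0, and the dashed line is the median of all tested genes, −0.08.

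Of the 15 WNT genes at an unadjusted P of at most 0.05, 5 stayed at or under that P in the same direction in each of the 13 alternative settings run, namely SFRP2, AXIN2, WNT6, LEF1 and LRP5. The lowest adjusted p given below for each of these 5 comes from the crossed pairing of replicates, which was added after the data were seen. The other 10 had a P over 0.05 in at least 1 setting.

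Ligands were found in both directions. Of the 14 tested among 19, 4 were lower and 1 higher at an unadjusted P of at most 0.05. Of all tested genes, 15.2% were lower and 5.02% higher at that P. The median log2 fold change of the tested ligands was 0.11. WNT6, a ligand made by several epithelia, had the highest level of the ligands. It stood at 136 and 131 TPM in control and 105 and 109 TPM in oeDAZL. The groups did not overlap, and the gap was several times the spread within either group. The log2 fold change was −0.31 (standard error 0.06, adjusted p = 0.0897), and it stayed between −0.34 and −0.23 over the alternatives, with limma adjusted p-values from 0.0238 to 0.435. WNT6 lies on chromosome 2 of hg38 from 218859805 to 218874233, and 6619 bases beyond it begins WNT10A, another ligand. WNT10A was at 1.40 and 0.740 TPM in control and 1.61 and 1.27 TPM in oeDAZL, so that its groups overlapped.

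WNT11 acts largely through the branch of the pathway that does not use β-catenin. It was at 21.4 and 20.7 TPM in control and 14.9 and 17.6 TPM in oeDAZL. Both oeDAZL libraries were lower, with a log2 fold change of −0.36 (standard error 0.11, adjusted p = 0.168). Its unadjusted P was over 0.05 without control replicate 1 (−0.33) or without oeDAZL replicate 1 (−0.24). WNT2B was at 4.41 and 3.31 TPM in control and 2.21 and 1.94 TPM in oeDAZL, a log2 fold change of −0.65 (standard error 0.20, adjusted p = 0.171). Its unadjusted P was over 0.05 without control replicate 1 (−0.49) or oeDAZL replicate 2 (−0.59). It overlaps ST7L on the opposite strand, which was at 9.17 to 14.8 TPM. WNT8A, known from the primitive streak, was at 2.85 and 1.68 TPM in control and 0.258 and 1.31 TPM in oeDAZL. The oeDAZL libraries lay below both controls but far from each other, and oeDAZL replicate 1 set much of the difference. The log2 difference of −0.91 (standard error 0.36, adjusted p = 0.237) became −0.48 without oeDAZL replicate 1 and −0.65 without control replicate 1, both with an unadjusted P over 0.05, and −1.69 with a pseudocount of 0.1. In all, its unadjusted P was over 0.05 in 8 of the 12 alternatives that kept this gene.

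WNT9B was the ligand higher at an unadjusted P of at most 0.05. It stood at 25.2 and 22.9 TPM in control and 27.6 and 29.7 TPM in oeDAZL, without overlap. Its log2 fold change was 0.24 (standard error 0.09, adjusted p = 0.215), and its unadjusted P was over 0.05 with the replicate number as a block and when control replicate 2 (0.18), oeDAZL replicate 1 (0.29) or oeDAZL replicate 2 (0.19) was left out. The unadjusted P of WNT9B was also over 0.05 with no trend in limma's variance. Its neighbour WNT3, a ligand required for the primitive streak in the mouse, is transcribed away from it on chromosome 17. In GENCODE 44 the outermost starts of these genes lie 47 bases apart. A RefSeq start of WNT3 lies inside that span of the gene, within chr17:46818643-46818942. WNT3 was at 6.65 and 6.90 TPM in control and 8.61 and 7.85 TPM in oeDAZL, again without overlap. The log2 fold change of 0.25 did not pass (adjusted p = 0.334, 95% interval −0.06 to 0.56), but did so with quantile normalization (0.38), median-of-ratios scaling (0.32) or no trend in limma's variance.

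The ligands WNT5A and WNT5B, which mostly signal without β-catenin, were among the higher-level ligands. WNT5A was at 33.7 and 33.4 TPM in control and 28.8 and 30.3 TPM in oeDAZL. WNT5B was at 63.0 and 61.4 TPM in control and 57.3 and 57.0 TPM in oeDAZL. Each was lower in both oeDAZL libraries, with log2 fold changes of −0.18 (adjusted p = 0.256) and −0.12 (adjusted p = 0.331) that did not pass. WNT4 was at 14.7 and 12.4 TPM in control and 14.9 and 15.0 TPM in oeDAZL. WNT9A was at 5.97 and 9.46 TPM in control and 9.07 and 9.26 TPM in oeDAZL, so that the spread between the controls exceeded the difference between the groups. Of the remaining tested ligands, WNT2 lay between 0.937 and 2.29 TPM, WNT7B between 2.52 and 3.96 TPM and WNT10B between 1.71 and 3.39 TPM, and none of them passed. Their 95% intervals ran from −0.24 to 1.0 for WNT2, from −0.47 to 0.63 for WNT7B and from −0.30 to 0.93 for WNT10B.

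R-spondins are secreted proteins that strengthen WNT signalling by removing the ubiquitin ligases ZNRF3 and RNF43 from the cell surface, with LGR4 and LGR5 as their receptors. Of the 4 R-spondins, 1 was lower at an unadjusted P of at most 0.05, beside 15.2% of all tested genes. All 4 had negative log2 fold changes, as did 65.3% of all tested genes, and their median was −0.25. With quantile normalization 3 of the 4 were negative, where the median of all tested genes was 0.00613. RSPO2 was at 4.41 and 6.28 TPM in control and 3.02 and 3.01 TPM in oeDAZL. The oeDAZL libraries were nearly equal and lower, while the controls spread widely. The log2 difference was −0.65 (standard error 0.20, adjusted p = 0.168). The unadjusted P was over 0.05 with quantile normalization (−0.49) and without control replicate 2 (−0.43), oeDAZL replicate 1 (−0.65) or oeDAZL replicate 2 (−0.64). RSPO3 was at 7.50 and 5.29 TPM in control and 4.58 and 5.42 TPM in oeDAZL, with overlap. RSPO1 lay between 2.30 and 4.28 TPM and RSPO4 between 1.46 and 2.03 TPM, and neither passed.

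RNF43, a ligase that clears FZD receptors from the membrane and is itself a pathway target, was higher in oeDAZL. It was at 26.4 and 31.0 TPM in control and 42.1 and 34.5 TPM in oeDAZL. The groups did not overlap, but the oeDAZL libraries differed from each other by more than the gap to the nearer control. Its log2 fold change was 0.40 (standard error 0.12, adjusted p = 0.171), and the unadjusted P was over 0.05 without control replicate 1 (0.29), without oeDAZL replicate 1 (0.26) and with no trend in limma's variance. RNF43 overlaps TSPOAP1-AS1 on the opposite strand, which was at 0.612 and 0.548 TPM in control and 2.0 and 1.96 TPM in oeDAZL. Whether the counting used strand is not given in the sources used here, so reads of such pairs cannot be told apart. The same holds for 11 other tested WNT genes with an overlapping gene at a mean of at least 1 TPM on the opposite strand, namely CTNNB1, DKK3, FZD4, FZD6, GSK3B, TCF7, WNT2, WNT2B, WNT4, WNT5A and WNT5B. ZNRF3, the related ligase, was at 14.2 and 11.9 TPM in control and 10.3 and 11.1 TPM in oeDAZL. It lay lower in both oeDAZL libraries, with a log2 fold change of −0.26 that did not pass (adjusted p = 0.297). The contrast between both ligases was not tested. LGR4 was at 31.6 and 26.1 TPM in control and 30.1 and 26.6 TPM in oeDAZL. LGR5, a target as well as a receptor, was at 2.91 and 1.51 TPM in control and 1.74 and 1.75 TPM in oeDAZL. Both LGR genes overlapped between the groups.

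Among the receptors, the co-receptor LRP5 and the Frizzled receptors FZD6 and FZD2 were lower. Of the 10 tested FZD and LRP genes, 3 were lower at an unadjusted P of at most 0.05 and none higher, and 7 did not pass. Of all tested genes, 15.2% were lower and 5.02% higher at that P. A negative log2 fold change was found for 9 of the 10, beside 65.3% of all tested genes, and their median was −0.22. With median-of-ratios scaling 8 and with quantile normalization 7 of the 10 were negative, where all tested genes had medians of −0.00258 and 0.00613. LRP5 was at 39.6 and 35.2 TPM in control and 28.7 TPM in both oeDAZL libraries. The oeDAZL libraries agreed closely and lay below both controls. The log2 fold change was −0.37 (standard error 0.09, adjusted p = 0.116), and it stayed between −0.45 and −0.28 over the alternatives, with limma adjusted p-values from 0.0423 to 0.455. LRP6, its paralog, was at 18.5 and 16.8 TPM in control and 16.5 and 16.6 TPM in oeDAZL, with a log2 fold change of −0.08, a 95% interval from −0.32 to 0.15, and the opposite sign (0.00476) with quantile normalization.

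FZD6 was at 47.6 and 42.8 TPM in control and 35.2 and 37.3 TPM in oeDAZL, a log2 fold change of −0.31 (standard error 0.08, adjusted p = 0.140). Without oeDAZL replicate 1 it was −0.27, with an unadjusted P over 0.05. FZD6 overlaps BAALC-AS1 on the opposite strand, which was at 6.45 to 8.96 TPM. FZD2 had the highest receptor level, at 73.3 and 72.4 TPM in control and 62.7 and 63.6 TPM in oeDAZL. Its replicates were tight in both groups, so that a log2 fold change of only −0.20 (standard error 0.06) was at an unadjusted P of at most 0.05 (adjusted p = 0.159). That P was over 0.05 with median-of-ratios scaling (−0.12), with no trend in limma's variance, and without oeDAZL replicate 1 (−0.19) or oeDAZL replicate 2 (−0.21). FZD7, a receptor of pluripotent cells, was at 33.4 and 20.7 TPM in control and 21.6 and 21 TPM in oeDAZL. Control replicate 1 stood apart from the other 3 libraries. The log2 difference of −0.29 (adjusted p = 0.465) became 0.04 without that library and −0.62 without control replicate 2. FZD8 was at 10.8 and 11 TPM in control and 8.04 and 9.88 TPM in oeDAZL. FZD3 was at 6.68 and 6.39 TPM in control and 5.22 and 5.60 TPM in oeDAZL. FZD8, FZD3 and FZD1 were lower in both oeDAZL libraries without passing, while FZD5, between 8.40 and 8.73 TPM, and FZD4, between 12.5 and 13.7 TPM, overlapped.

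**Figure D2:**
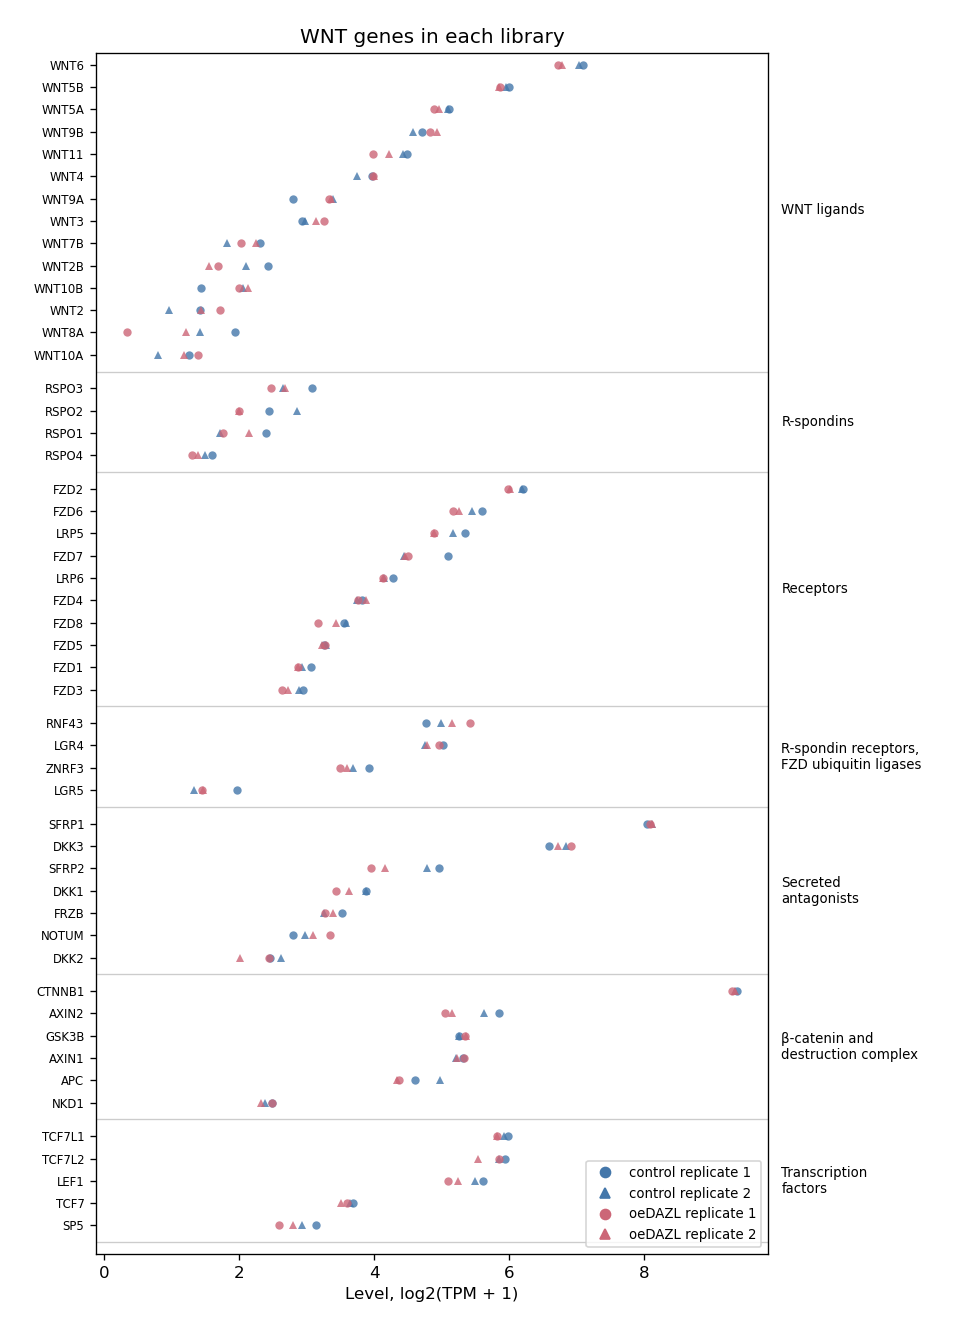
Level of each tested WNT gene in each library as log2(TPM + 1), grouped by role and ordered by mean level; circles are replicate 1 and triangles replicate 2, blue for control and red for oeDAZL. CTNNB1, SFRP1 and WNT6 lead their groups, AXIN2, SFRP2 and LEF1 show the oeDAZL libraries left of both controls, and FZD7 shows control replicate 1 apart.

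Among the secreted antagonists, 2 of the 7 tested were lower and none higher at an unadjusted P of at most 0.05. Of all tested genes, 15.2% were lower and 5.02% higher at that P. SFRP2, a secreted Frizzled-related protein that binds WNT ligands outside the cell, was at 30.4 and 26.5 TPM in control and 14.4 and 16.9 TPM in oeDAZL. The higher oeDAZL library lay well below the lower control. Its log2 fold change was −0.82 (standard error 0.12, 95% interval −1.10 to −0.54, adjusted p = 0.0896), the lowest P among the WNT genes. It stayed between −0.93 and −0.71 over the alternatives, with limma adjusted p-values from 0.00584 to 0.322. SFRP1, a paralog with the highest level of all antagonists, was at 263 and 277 TPM in control and 273 and 277 TPM in oeDAZL. Its groups overlapped, and its log2 fold change of 0.03 had a 95% interval from −0.10 to 0.16.

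DKK1, which blocks LRP5 and LRP6 and is a target of the pathway, was at 13.8 and 13.7 TPM in control and 9.81 and 11.3 TPM in oeDAZL. The log2 fold change was −0.36 (standard error 0.11, adjusted p = 0.180), and the unadjusted P was over 0.05 with quantile normalization (−0.25) and without control replicate 1 (−0.35), control replicate 2 (−0.36) or oeDAZL replicate 1 (−0.26). DKK2 was at 4.47 and 5.16 TPM in control and 4.42 and 3.04 TPM in oeDAZL. DKK3, a divergent family member, was at 95.6 and 114 TPM in control and 120 and 106 TPM in oeDAZL. NOTUM, an enzyme that removes the lipid from WNT ligands and is induced by the pathway, was at 5.97 and 6.86 TPM in control and 9.23 and 7.53 TPM in oeDAZL. Both of its oeDAZL libraries were higher, but the log2 fold change of 0.34 did not pass (adjusted p = 0.280). With median-of-ratios scaling (0.41), quantile normalization (0.47) and the crossed pairing of replicates, its unadjusted P was under 0.05. FRZB lay between 8.60 and 10.5 TPM with overlapping groups.

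β-catenin itself differed little. CTNNB1 was at 669 and 653 TPM in control and 630 and 651 TPM in oeDAZL. The log2 difference was −0.05, with a 95% interval from −0.17 to 0.08, and it turned to 0.04 with median-of-ratios scaling. This 1 gene made up 31.5% to 33.2% of the summed TPM of the 60 WNT genes. That sum was 2126 and 2073 TPM in control and 1948 and 1962 TPM in oeDAZL, and without CTNNB1 it was 1456 and 1420 TPM against 1318 and 1311 TPM. Both sums were lower in both oeDAZL libraries, beside a median log2 fold change of −0.08 over all tested genes. Mitochondrial genes made up 12.6% and 13.4% of TPM in control and 14.1% and 13.9% in oeDAZL.

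Of the destruction complex, APC was at 23.4 and 30.7 TPM in control and 19.7 and 19.3 TPM in oeDAZL. The controls differed from each other by more than the gap between the lower control and the oeDAZL libraries. The estimate of −0.44 on the log2 scale (standard error 0.13, adjusted p = 0.168) was −0.25 without control replicate 2, and its unadjusted P was over 0.05 with median-of-ratios scaling (−0.36) and quantile normalization (−0.36). AXIN1, the constitutive scaffold, was at 39.1 and 36 TPM in control and 39.1 and 36.5 TPM in oeDAZL. The log2 fold change was 0.01, with a 95% interval from −0.19 to 0.21. GSK3B was at 37.2 TPM in both control libraries and 39.9 and 40.1 TPM in oeDAZL. The log2 difference of 0.10 did not pass as deposited (adjusted p = 0.437), and passed with median-of-ratios scaling (0.18) and quantile normalization (0.17).

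AXIN2, the inducible paralog of AXIN1, is transcribed in response to β-catenin and TCF and is the most widely used readout of the pathway. It lies on the reverse strand of chromosome 17 of hg38 from 65528563 to 65561648. AXIN2 was at 57.0 and 48.4 TPM in control and 32.1 and 34.5 TPM in oeDAZL. Both oeDAZL libraries lay far below both controls. The oeDAZL mean was 0.632 of the control mean, with a log2 fold change of −0.64 (standard error 0.10, 95% interval −0.88 to −0.40, adjusted p = 0.0896). It stayed between −0.76 and −0.53 over the alternatives, with limma adjusted p-values from 0.00622 to 0.322.

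The DNA-binding factors LEF1, TCF7, TCF7L1 and TCF7L2 and the target SP5, a zinc-finger factor that acts with them, all lay lower in both oeDAZL libraries. So did 38.4% of all tested genes. Of the 5 factors, 1 was lower at an unadjusted P of at most 0.05, beside 15.2% of all tested genes. The direction of the 5 factors did not turn with the scaling of the libraries, but TCF7 and TCF7L1 came near 0. With median-of-ratios scaling and quantile normalization, the log2 fold change was −0.03 and −0.00661 for TCF7. For TCF7L1 it was −0.04 and −0.08. LEF1 was at 48.2 and 44.1 TPM in control and 33.1 and 36.8 TPM in oeDAZL. Its log2 fold change was −0.39 (standard error 0.09, adjusted p = 0.11), and it stayed between −0.47 and −0.31 over the alternatives, with limma adjusted p-values from 0.0246 to 0.480. SP5 was at 7.78 and 6.66 TPM in control and 5.01 and 5.98 TPM in oeDAZL, a log2 fold change of −0.34 that did not pass (standard error 0.15, adjusted p = 0.281). TCF7L1, mainly a repressor, was at 62.3 and 59.6 TPM in control and 55.7 and 55.8 TPM in oeDAZL. TCF7L2 was at 60.6 and 56.9 TPM in control and 56.7 and 45.5 TPM in oeDAZL, with oeDAZL replicate 2 apart and an upper oeDAZL value close to the lower control. TCF7 was at 11.9 and 11.5 TPM in control and 11.1 and 10.4 TPM in oeDAZL.

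A RefSeq start is shown for each of SP5, LEF1, DKK1 and SFRP2. They were chosen because their levels lay lower in both oeDAZL libraries and 3 of them are known targets of TCF/LEF factors. Each window runs from 250 bases before to 50 bases after the transcription start in RefSeq (GRCh38.p14), 5′ to 3′ on the strand of the gene. Capitals mark CTTTGAT or CTTTGTT, forms of the TCF/LEF consensus, searched on both strands. The window of SP5 is chr2:170715087-170715386 (forward strand), that of LEF1 chr4:108166252-108166551 (reverse), that of DKK1 chr10:52314031-52314330 (forward) and that of SFRP2 chr4:153789034-153789333 (reverse).
SP5: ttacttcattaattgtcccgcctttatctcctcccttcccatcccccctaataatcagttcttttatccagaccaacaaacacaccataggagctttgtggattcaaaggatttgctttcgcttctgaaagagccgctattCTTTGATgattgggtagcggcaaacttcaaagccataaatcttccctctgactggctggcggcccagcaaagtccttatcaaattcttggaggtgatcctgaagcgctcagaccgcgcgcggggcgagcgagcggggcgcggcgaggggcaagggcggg
LEF1: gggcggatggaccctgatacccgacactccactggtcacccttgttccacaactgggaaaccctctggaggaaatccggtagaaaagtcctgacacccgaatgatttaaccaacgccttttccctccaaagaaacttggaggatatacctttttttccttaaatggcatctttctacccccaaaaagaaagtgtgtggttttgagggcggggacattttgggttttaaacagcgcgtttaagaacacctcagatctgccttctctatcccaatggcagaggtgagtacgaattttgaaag
DKK1: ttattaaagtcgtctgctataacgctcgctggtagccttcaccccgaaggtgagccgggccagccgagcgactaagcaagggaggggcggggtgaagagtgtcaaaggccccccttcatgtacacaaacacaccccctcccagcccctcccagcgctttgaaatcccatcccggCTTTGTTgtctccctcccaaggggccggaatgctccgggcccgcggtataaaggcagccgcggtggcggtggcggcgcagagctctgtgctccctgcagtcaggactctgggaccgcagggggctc
SFRP2: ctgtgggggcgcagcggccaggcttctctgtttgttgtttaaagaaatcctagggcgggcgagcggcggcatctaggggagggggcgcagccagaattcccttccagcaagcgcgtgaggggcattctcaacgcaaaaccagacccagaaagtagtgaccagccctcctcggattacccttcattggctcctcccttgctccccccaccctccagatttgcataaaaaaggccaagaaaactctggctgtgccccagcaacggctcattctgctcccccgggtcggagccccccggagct
SP5 holds 1 CTTTGAT, whose first base lies 109 bases before the start, and DKK1 holds 1 CTTTGTT, 76 bases before the start. LEF1 and SFRP2 hold neither in these windows. Windows were found for 41 of the 60 WNT genes, with several starts for some, and 5 of 49 windows (10.2%) held a match, those of SP5, DKK1, TCF7, TCF7L2 and WNT3. Of all 35116 RefSeq windows of this length, 7.61% held one. A match describes letters only. AXIN2, RSPO2, ZNRF3 and NOTUM had no window.

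The 9 direct feedback targets, counted as a list, differed in direction. AXIN2 and LEF1 were lower and RNF43 was higher at an unadjusted P of at most 0.05, while the other 6 did not pass. Of all tested genes, 15.2% were lower and 5.02% higher at that P. Both oeDAZL libraries lay below both controls for 5 of the 9 (AXIN2, LEF1, SP5, ZNRF3 and TCF7), against 38.4% of all tested genes. They lay above both for RNF43 and NOTUM, against 16% of all tested genes. LGR5 and NKD1 overlapped, the latter at 4.63 and 4.22 TPM in control and 4.62 and 4.02 TPM in oeDAZL. Their median log2 fold change was −0.19, beside −0.08 for all tested genes, and it lay at −0.13 with median-of-ratios scaling and at −0.00661 with quantile normalization. The summed level of AXIN2, SP5 and LEF1 was 113 and 99.2 TPM in control and 70.1 and 77.3 TPM in oeDAZL.

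**Figure D3:**
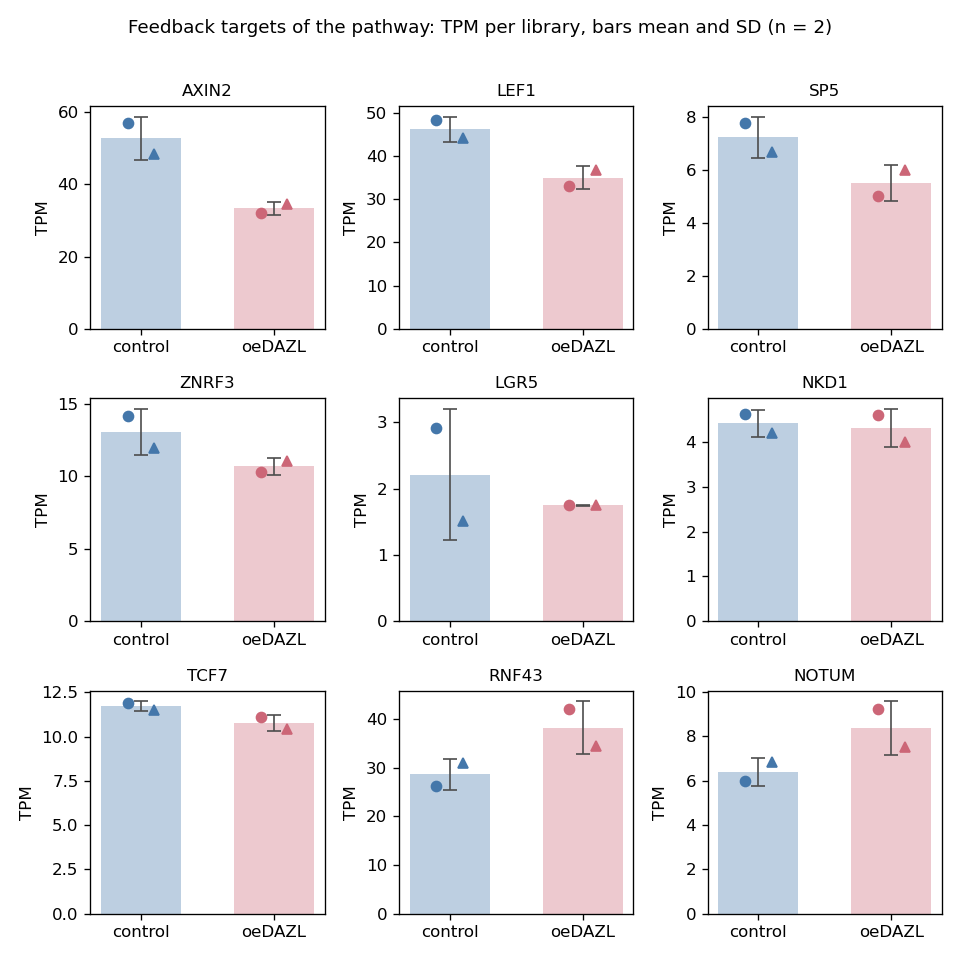
TPM of the 9 feedback targets in each library; bars are group means, error bars the SD of 2 libraries, circles replicate 1 and triangles replicate 2. AXIN2, LEF1, SP5, ZNRF3 and TCF7 are lower in both oeDAZL libraries, RNF43 and NOTUM higher in both, and LGR5 and NKD1 overlap.

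The 10 WNT genes with a mean under 1 TPM were not compared. They are the ligands WNT1, WNT3A, WNT7A, WNT8B and WNT16, the receptors FZD9 and FZD10, and the antagonists SFRP4, SFRP5 and DKK4. WNT3A, the ligand often added to cultures to drive the pathway, was at 0.820 and 0.595 TPM in control and 0.440 and 0.174 TPM in oeDAZL. WNT8B was at 1.88 and 0.525 TPM in control and was listed at 0 and 0.406 TPM in oeDAZL. WNT1 was at 1.24 and 0.245 TPM in control and 0.176 and 0.189 TPM in oeDAZL. Levels this low carry an unknown counting error, and no difference is read from them.

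Of 75 further genes of the pathway, 71 had a mean of at least 1 TPM. Limma called 0 of them at a 2-fold change, while 20 of the 71 were lower and 6 higher at an unadjusted P of at most 0.05, beside the 15.2% and 5.02% of all tested genes. No adjusted p was under 0.05 in limma. Their median log2 fold change was −0.13. At an unadjusted P of at most 0.05, 12 were lower and 10 higher with median-of-ratios scaling, beside 9.16% and 9.95% of all tested genes. With quantile normalization 14 were lower and 9 higher, beside 9.07% and 8.40% of all tested genes. Without such scaling, 6 of 13 extracellular modulators and secretion factors were lower and 2 higher at that P, beside 15.2% and 5.02% of all tested genes. CER1, an inhibitor of WNT, nodal and BMP ligands, was at 4.53 and 3.71 TPM in control and 1.55 and 1.84 TPM in oeDAZL (log2 fold change −0.92, standard error 0.19, adjusted p = 0.104). Among other receptors, 1 of 5 was lower and 1 higher. ROR2, a receptor for WNT5A, was at 33.3 and 25 TPM in control and 18.9 and 18.5 TPM in oeDAZL (−0.60, standard error 0.14, adjusted p = 0.116).

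Cytoplasmic transducers gave 2 lower and 1 higher of 21 at an unadjusted P of at most 0.05. Beside this list and those that follow, 15.2% of all tested genes were lower and 5.02% higher at that P. CSNK1E, a casein kinase of the pathway, was at 190 and 184 TPM in control and 155 and 167 TPM in oeDAZL (log2 fold change −0.22, standard error 0.06, adjusted p = 0.154). Planar cell polarity genes gave 4 lower and 0 higher of 10 at an unadjusted limma P of 0.05. CELSR1, an atypical cadherin, was at 39.6 and 35 TPM in control and 27.4 and 27.0 TPM in oeDAZL (−0.44, standard error 0.09, adjusted p = 0.0984). Nuclear cofactors gave 4 lower and 0 higher of 11. AES, a short member of the Groucho/TLE corepressor family, was at 188 and 182 TPM in control and 145 TPM in both oeDAZL libraries (−0.35, standard error 0.05, adjusted p = 0.0896). Other known targets gave 3 lower and 2 higher of 11. CDX2 was at 22.8 and 20.4 TPM in control and 12.3 and 13.7 TPM in oeDAZL (−0.69, standard error 0.11, adjusted p = 0.0896). TBXT, the brachyury gene of primitive streak and mesoderm, was at 2.49 and 1.25 TPM in control and 0.319 and 0.546 TPM in oeDAZL (−0.97, standard error 0.30, adjusted p = 0.173). MSX2, which is also a target of BMP signalling, was at 201 and 205 TPM in control and 249 and 245 TPM in oeDAZL (0.28, standard error 0.05, adjusted p = 0.0896). TBXT and MSX2 were chosen after their values were seen.

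**Figure D4:**
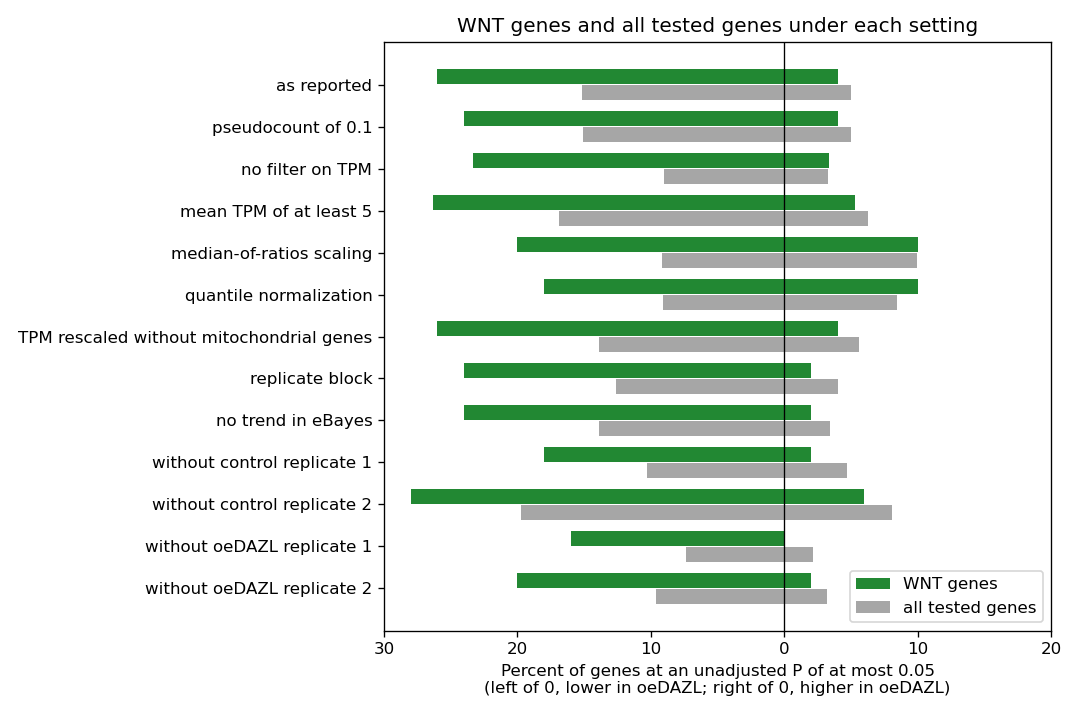
Percent of WNT genes (green) and of all tested genes (grey) at an unadjusted P of at most 0.05 under each setting shown, with lower in oeDAZL to the left and higher to the right. The WNT share lower runs from 16.0% without oeDAZL replicate 1 to 28.0% without control replicate 2, and the share of all tested genes moves with it from 7.35% to 19.7%.

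The share of WNT genes that were lower depended on how the libraries were scaled, as the plot of shares by setting shows. At an unadjusted limma P of at most 0.05, 10 were lower and 5 higher with median-of-ratios scaling, beside 9.16% and 9.95% of all tested genes. With quantile normalization 9 were lower and 5 higher, beside 9.07% and 8.40% of all tested genes. With each library left out in turn, 8 to 14 were lower and 0 to 3 higher.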

How the data were processed

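RNA-seq of 2 control and 2 oeDAZL libraries of H9-derived cells was analysed; the miRNA libraries were not analysed here. The authors deposited TPM per gene, 1 column per library, replicates not pooled. By their methods and processing notes, reads were trimmed with Trim Galore, mapped to hg38 with HISAT2 2.1.0, kept if uniquely mapped and quantified with StringTie 2.1.4; the annotation release and the use of strand are not given in the sources used here. Bulk TPM gives no depth, so precision was taken from the spread between replicates.

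Of 65003 entries, 45 pseudoautosomal copies on chromosome Y and 18 repeats of a gene were dropped. Log2(TPM + 1) of the 16687 genes with a mean of at least 1 TPM entered limma 3.58.1 (R 4.3.3; lmFit and eBayes with trend), oeDAZL against control, no covariates. The DESeq2 fit on read counts named in the study's methods needs counts and was not made. Named genes were every WNT gene, by role, and in each further list the gene with the lowest P. Members and lists were chosen with earlier results of these data known. Of the 75 further genes, 3 were matched by another symbol (TLE5 as AES, TIKI1 as TRABD2A and TIKI2 as TRABD2B). The fit was tested on simulated data. Positions are from GENCODE 44 and promoters from RefSeq (GRCh38.p14).

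Same-numbered replicates share only a number. Alternatives were a pseudocount of 0.1, no filter, a mean of at least 5 TPM, 2 scalings, TPM without mitochondrial genes, a replicate block, no trend, other call rules and each library left out.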

Additional observations from a re-analysis of the deposited data

How the results depend on the processing

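The count of WNT genes called by fold and limma P, 0 higher and 0 lower, stayed at 0 in each alternative listed in the methods except for 0 to 1 lower with each library left out (WNT8A, without control replicate 2 or oeDAZL replicate 2). By limma's unadjusted P alone it was 2 and 13. That count, with settings applied after the data were seen, was 5 higher with median-of-ratios scaling and with quantile normalization, 1 higher with the replicate block and without limma's trend, and 0 to 3 higher and 8 to 14 lower with each library left out. Leaving out control replicate 2 gave 3 WNT genes with an adjusted p under 0.05 in limma (SFRP2, FZD7 and AXIN2), among 673 of all tested genes. In such fits the lone library is assumed to vary like the other group.

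Further pathway genes called lower were 4 at a pseudocount of 0.1, 1 without mitochondrial genes and 0 to 3 with each library left out. By unadjusted P alone they were 6 higher and 20 lower. Over all tested genes, 21 higher and 94 lower became 6 and 23 at a mean of 5 TPM or more, 55 and 267 at the lower pseudocount of 0.1, 41 and 52 with quantile normalization, 838 and 2530 by unadjusted P, 4 and 6 by adjusted p in limma, and 35 to 87 and 85 to 235 with each library left out.

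Single genes with small differences changed sign. With median-of-ratios scaling the log2 fold change was 0.0385 for NKD1, 0.0153 for FRZB, 0.0578 for FZD5, 0.0383 for CTNNB1 and 0.0597 for LGR4. With quantile normalization it was 0.00476 for LRP6, 0.12 for NKD1, 0.0573 for FRZB, 0.11 for FZD5, 0.0643 for RSPO1 and 0.0483 for LGR4. With each library left out it ran from −0.0486 to 0.0684 for AXIN1, from −0.0161 to 0.23 for DKK3, from −0.19 to 0.0707 for FRZB, from −0.0313 to 0.0943 for FZD4, from −0.62 to 0.0411 for FZD7, from −0.15 to 0.11 for LGR4, from −0.51 to 0.13 for LGR5, from −0.11 to 0.0525 for NKD1, from −0.45 to 0.23 for RSPO1, from −0.00805 to 0.0665 for SFRP1, from −0.17 to 0.33 for WNT7B and from −0.0414 to 0.54 for WNT9A. The cause was not tested.

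Deviations of same-numbered libraries correlated at −0.104 over tested genes. With the replicate number as a block, WNT genes called stayed at 0, and all tested genes called were 26 higher and 99 lower. With the crossed pairing, added after the data were seen, they were 0, and 28 and 107, and 6 WNT genes (RNF43, WNT6, LEF1, SFRP2, LRP5 and AXIN2) among 1089 of all tested genes had an adjusted p under 0.05 in limma.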
